A study of Mus musculus with 54 samples.

Results

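Distal regions with enhancer marks, acetylated in heart muscle cells and not counted as active at 3 earlier stages of their formation, are described here. Mouse stem cells (strain 129/Ola) were grown as embryoid bodies with VEGF, Activin A and BMP4 and then in StemPro-34 medium with VEGF, bFGF and FGF10. ChIP-seq was run on the undifferentiated embryonic stem cells (ESC) at day 0, on mesoderm (MES) at day 4, on precursors of heart cells (CP) at day 5.3 and on cardiomyocytes (CM) at day 10. No group carried a genetic change beyond the shared strain, as far as the labels say, and replicates were biological, per the series' design text. The cultures were profiled in bulk, so a mark carried by fewer cells and a weaker mark in every cell cannot be told apart.

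The members were chosen by measured values, the H3K4me1, H3K27ac and H3K4me3 calls of all 4 stages. A region was a member when merged H3K4me1 regions were present in all 3 CM libraries, overlapped H3K27ac in both CM libraries, overlapped no H3K4me3 in either CM library, and overlapped no region that met the same rule in ESC, MES or CP. Of 79976 merged H3K4me1 regions of CM, 20268 were present in all 3 libraries, 13451 of these were free of H3K4me3 (called distal below), 4267 were also acetylated in both libraries (called active), and 3449 remained as members, 25.6% of the distal regions. The other 818 active regions overlapped a region active earlier, 652 of them in CP, 249 in MES and 34 in ESC, with some counted at more than 1 stage. The 3449 members are set against 10115 distal regions active at any stage after merging. The sets compared with them held 536 regions active in CP and CM but in neither ESC nor MES, 1385 active only in CP, 2284 active only in MES and 1926 active only in ESC.

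Enhancers are stretches of DNA, often far from the promoter they act on, that bind tissue transcription factors and raise transcription. H3K4me1 marks enhancers both before and during use, H3K27ac marks those in use, and H3K4me3 marks promoters. H3K27me3, laid down by the Polycomb complex on the same lysine that carries H3K27ac, marks silenced developmental loci, and RNAPII Ser5P, polymerase II with a phosphate on serine 5 of its tail, is the form found where transcription begins. In heart formation, many enhancers gain acetylation stage by stage as mesoderm becomes beating muscle.

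The member rule used H3K4me1, H3K27ac and H3K4me3 at every stage, so their values at members are given as a description with no test. RNAPII Ser5P (1 ESC library and 2 at each later stage) and H3K27me3 (2 ESC libraries and 3 at each later stage) were not used by the rule and were tested. The lists differed in size, with 31571 to 96999 regions per H3K4me1 library, 25170 to 73186 for H3K27ac, 21264 to 54528 for H3K4me3, 11332 to 48837 for RNAPII Ser5P and 2929 to 38392 for H3K27me3. Read depth is unknown, so no counting interval could be given. The lists are in the mm9 build, for which no annotation or genome was used, so regions are given by position and not by gene, and the labelled cell types were not checked against marker genes. For H3K27ac in CM, the cell type field says stem cells, although title, source and time point all say cardiomyocytes.

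The label of these regions, active only in CM, held by the rule but not for every earlier library. H3K27ac was called in at least 1 of the 6 earlier libraries at 1924 members (55.8%), against 48.6% of all 13451 distal regions of CM, and in none at 1525 members (44.2%), against 51.4% of the distal regions. These shares are fixed in part by the rule, and nothing is read from the differences. In both CP libraries H3K27ac was already present at 593 members (17.2%; 15.0% of the distal regions), in exactly 1 at 903 (26.2%; 18.3%) and in neither at 1953 (56.6%; 66.7%). At 380 members (11%; 16.7% of the distal regions), H3K4me1 was present in all libraries and H3K27ac in both libraries of at least 1 earlier stage. Of these 380, 325 (9.42% of the members; 7.43% of the distal regions) carried H3K4me3 in at least 1 library of that stage, the mark that bars a region from being counted as active. The members are therefore regions that were acetylated in both CM libraries and had not met all conditions before, rather than regions without earlier acetylation. Whether they act as enhancers was not tested.

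H3K4me1 at members was found in 24.8%, 7.22% and 11.3% of regions in the 3 ESC libraries, in 34.2%, 18.6% and 17.3% in MES, and in 60.9%, 47.1% and 30.9% in CP. The CP libraries overlapped the MES libraries in range, since the lowest CP share lay under the highest MES share. All 3 CP libraries held H3K4me1 at 810 members (23.5%), against 31.1% of all distal regions, and none did at 1065 members (30.9%), against 29.1%. All 3 MES libraries held it at 455 members (13.2%; 19.7% of the distal regions) and all 3 ESC libraries at 177 (5.13%; 6.34%). At 878 members (25.5%; 23.6% of the distal regions), no ESC, MES or CP library held H3K4me1. Among the 27 combinations of none, some or all libraries of ESC, MES and CP, this empty one was the most frequent, followed by regions with H3K4me1 in some CP libraries alone (802 members, 23.3%).

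H3K27ac was called at 20.8% and 7.54% of members in the 2 ESC libraries, at 26.1% and 9.25% in MES, and at 39.5% and 21% in CP. At each stage replicate 1 held the higher share. Both ESC libraries held it at 227 members (6.58%; 6.04% of the distal regions). Neither H3K4me1 nor H3K27ac was called in any earlier library at 743 members (21.5%; 21.7%). H3K4me1 in every CP library without H3K27ac in either, the state often called primed, was found at 234 members (6.78%), against 11.9% of the distal regions. No earlier library held H3K4me1, H3K27ac, H3K4me3 or RNAPII Ser5P at 691 members (20.03%), a share near the 20.2% of all distal regions.

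**Figure D1:**
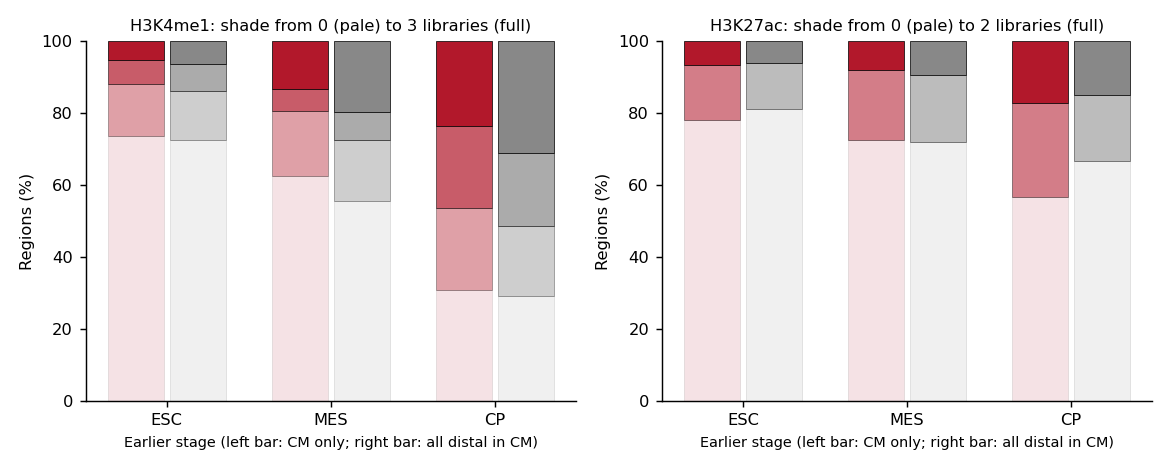
Percent of regions (vertical axis) with H3K4me1 (left) or H3K27ac (right) in none, some or all libraries of each earlier stage, paler shades standing for fewer libraries; at each stage the left bar shows the 3449 CM-only regions and the right bar all 13451 distal H3K4me1 regions of CM. In CP, 30.9% of the CM-only regions had no H3K4me1 and 56.6% had no H3K27ac.

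H3K4me3 had been present before CM at 711 members (20.6%), a share close to the 19.6% of all distal regions. It lay at 13.3% and 9.31% of members in the ESC libraries, 6.15% and 2.12% in MES and 9.31% and 1.25% in CP, and at none in CM by the rule. Both ESC libraries held it at 291 members (8.44%; 7.44% of the distal regions).

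Earlier acetylation went with other features of the members. Those without H3K27ac in any earlier library had a median length of 1225 bases, those with it in 1 or 2 libraries 1675 bases, and those with it in 3 to 6 libraries 2100 bases. Their median distances to the nearest H3K4me3 region present in both CM libraries were 36.1, 30.0 and 16.4 kb in the same order of groups. H3K4me3 had been called earlier at 3.08%, 17.7% and 69.3% of the 3 groups. The last of these shares follows in part from the rule, since a region with H3K4me1 and H3K27ac throughout an earlier stage stays a member mostly where H3K4me3 was called there. RNAPII Ser5P, which played no part in the rule, overlapped 2.10% and 7.80% of the group without earlier H3K27ac in the 2 CM libraries, 5.62% and 10.8% of the group with 1 or 2, and 9.58% and 14.4% of the group with 3 to 6. In the 2 CP libraries the same groups had 2.82% and 2.30%, 6.78% and 4.01%, and 20.4% and 12% with RNAPII Ser5P. The 3 groups kept this order in every one of these 4 libraries. Length differed between the groups too, and its part in the shares was not tested.

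The members were of moderate length and height. Their median length was 1475 bases (quartiles 950 and 2325, range 100 to 13150), against 1850 bases for regions active in CP and CM, 1800 for CP only, 2025 for MES only, 1175 for ESC only and 1150 for all distal regions of CM. Together they covered 6.41 Mb. At least 5 kb was spanned by 116 (3.36%), against 5.60% of regions active in CP and CM and 1.78% of all distal regions. Each peak height is given as a percentile among all regions of its own list, since heights are not on a shared scale between libraries. The height used is that of the tallest list region overlapping a member, and its highest point may lie outside the member. By H3K4me1 height the median member stood at percentile 73.9, 82.9 and 74.6 in the 3 CM libraries, against 82.0, 88.2 and 81.0 for regions active in CP and CM and 60.6, 67.3 and 65.6 for all distal regions. By H3K27ac height it stood at percentile 45.2 and 57.1 in the 2 CM libraries, against 55.6 and 63.8 for regions active in CP and CM and 40.9 and 50.8 for those distal regions that overlapped H3K27ac in the library. In the top 10% of their H3K27ac lists were 1.97% and 4.52% of the members, against 2.80% and 5.60% of regions active in CP and CM. Of all distal regions, acetylated or not, 0.706% and 1.57% were. By both marks the members stood between the other 2 sets. Their medians lay above the middle of the H3K4me1 lists and near the middle of the H3K27ac lists.

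**Figure D2:**
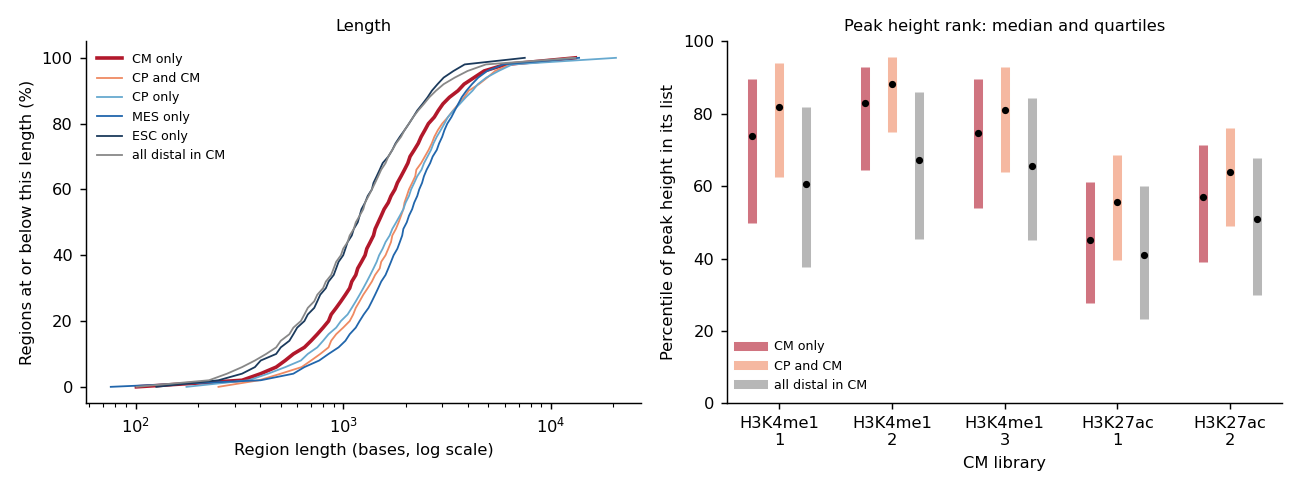
Left, cumulative percent of regions against length in bases (log scale) for each set. Right, the median (point) and quartiles (bar) of the percentile of peak height in each CM library, for CM-only regions, regions active in CP and CM, and all distal regions of CM; the CM-only medians for H3K27ac were 45.2 and 57.1.

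Regions just outside the rule differed in height. The 2688 distal regions with H3K27ac in 1 of the 2 CM libraries had a median H3K27ac percentile of 18.3 and 30.0 where it was called, and the 1465 with H3K4me1 in 2 of 3 libraries had 39.7 and 55.3. The 798 regions barred by H3K4me3 in 1 of the 2 CM libraries stood at 58 and 66, and the 2948 with H3K4me3 in both at 80.1 and 83.2. Within the members, the median of the mean percentile over both libraries was 50.6, with 5% of members under 15.5 and 5% above 83.8.

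H3K27ac covered a median of 47.2% of a member in CM replicate 1 and 75.9% in replicate 2. The highest points of H3K27ac and of H3K4me1 lay a median of 125 and 250 bases apart in the 2 replicates, while the highest points of H3K4me1 in 2 replicates lay 75 to 125 bases apart. A single H3K27ac region overlapped 77.3% and 80.7% of the members, and the rest had 2 or more.

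Of the 5 members with the highest H3K27ac, 4 had carried H3K4me3 at an earlier stage, and all 5 lay close to an H3K4me3 region present in both CM libraries. The leading pair lay on chromosome 5, at chr5:125870751-125871175 (425 bases) and chr5:125873726-125874675 (950 bases), and shared a percentile of 99.8 and 99.4 with a peak height of 280 in both CM libraries. Whether a single H3K27ac region overlapped both members, giving them the same height, was not checked. The second of this pair had H3K27ac at every earlier stage, with heights of 226 and 250 in ESC, 195 and 294 in MES and 248 and 223 in CP, and H3K4me3 in all 6 earlier libraries. At chr14:35316626-35317975 (1350 bases) H3K27ac also reached 215 to 362 in every earlier library, again with H3K4me3 in all 6. These regions lay 0.2, 3.17 and 0.075 kb from an H3K4me3 region of CM, so that they stood beside such a region rather than far from it. At chr8:73219076-73220425 (1350 bases), H3K27ac stood at 263 and 277 in CM, was not called in CP, and stood at 231 and 236 in ESC and at 50 in MES replicate 1. It had H3K4me3 in all 6 earlier libraries and lay 1.62 kb from H3K4me3 of CM. That region carried H3K27me3 in all 3 CP libraries (heights 143, 96 and 19), in 2 of 3 MES libraries (31 and 30) and in no CM library. The fifth, chr16:38359126-38362075 (2950 bases), had no earlier H3K4me3 but lay 0.15 kb from an H3K4me3 region of CM and had H3K27ac in both CP libraries (275 and 230). Over all members, 186 (5.39%) lay within 1 kb and 656 (19%) within 5 kb of an H3K4me3 region called in at least 1 CM library, against 4.74% and 18.6% of all distal regions.

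The 5 longest members were broad H3K4me1 domains with unequal acetylation. The longest, chr6:90645476-90658625 (13150 bases), had H3K4me1 in every MES, CP and CM library and H3K27ac heights of 79 and 138 in CM. At chr14:26445501-26457925 (12425 bases), H3K27ac stood at 49 and 74 in CM. At chr4:132597176-132609350 (12175 bases) it stood at 29 and 61 in CM and was present in all 6 earlier libraries, with H3K4me3 in all 6. The same earlier marks were found at chr2:165704101-165716175 (12075 bases), where H3K27ac stood at 154 and 209 in CM. Only chr4:45484176-45495875 (11700 bases) among the 5 longest had no earlier H3K4me3 call, and its H3K27ac stood at percentiles 72.6 and 79.5 in CM.

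The members with no earlier H3K4me1, H3K27ac, H3K4me3 or RNAPII Ser5P met the label in every earlier library. The highest of them by H3K27ac was chr10:74635601-74636400 (800 bases), with heights of 201 and 253 in CM, which lay 0.35 kb from an H3K4me3 region present in CM and not in ESC. At chr16:24416901-24419225 (2325 bases) H3K27ac stood at 180 and 252 in CM, H3K4me1 at 95, 64 and 84, and RNAPII Ser5P at 85 in CM replicate 2 only. At chr10:24198401-24199075 (675 bases) H3K27ac stood at 179 and 221 in CM. At chr14:21583951-21586725 (2775 bases) it stood at 173 and 228, and RNAPII Ser5P was called in both CM libraries (12 and 73). At chr9:14492876-14494950 (2075 bases) H3K27ac stood at 162 and 205 and the nearest H3K4me3 region was 60.7 kb away for those present in both CM libraries and 54.2 kb away for those in at least 1. Of these 5 regions, 4 lay at least 15.1 kb from H3K4me3 called in any CM library.

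RNAPII Ser5P, which the rule did not use, overlapped 7.07% of members in the ESC library, 1.83% and 4.44% in MES, 7.51% and 4.70% in CP and 4.78% and 10.1% in CM. All distal regions of CM had 6.68% in ESC, 1.76% and 5.03% in MES, 5.55% and 4.04% in CP and 1.97% and 4.62% in CM. The ESC and MES shares of the members thus lay near those of all distal regions. At members, CM libraries averaged 7.45% ± 3.77 (SD, n = 2) and earlier libraries 5.11% ± 2.29 (SD, n = 5), and the groups overlapped. The difference of 2.34 percentage points did not pass an exact two-sided permutation test over the 7 libraries (p = 0.286, adjusted p = 0.286 over the 4 tests laid out; the smallest p these 21 arrangements allow is 0.0476). With replicate 2 left out of every mark, which also rebuilt the member set (4207 regions), the difference came to -0.511 points. With a majority of libraries in the rule it was 0.195 points, and with lists cut to equal length by peak height 6.74 points (exact p = 0.0476, adjusted p = 0.0635). These settings also rebuilt the member set, to 7114 and 2627 regions.

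Regions active only at an earlier stage had lower shares than the members in CM. Pooled, the share with RNAPII Ser5P was 11.1% in ESC, 1.39% and 4.68% in MES, 4.04% and 2.72% in CP and 1.00% and 1.66% in CM. Members minus these regions came to -3.99 points in ESC, 0.433 and -0.247 in MES, 3.47 and 1.98 in CP and 3.78 and 8.46 in CM. The CM differences were the 2 largest of the 7, and averaged 6.12 ± 3.30 points in CM against 0.329 ± 2.81 at the earlier stages (SD, n = 2 and 5). An exact two-sided permutation test gave p = 0.0476, the smallest that 7 libraries allow, and an adjusted p of 0.0794 over 5 tests. This comparison was added after the shares had been seen. Members were chosen as active in CM and not before, the other regions as active before and not in CM. Part of the contrast may thus follow from the rule, and nothing is read from this test. The gap between CM and the earlier stages was 5.79 points with all libraries, and 1.203 points with replicate 2 left out of every mark and the sets rebuilt.

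Within libraries, members had a lower RNAPII Ser5P share than regions active in CP and CM in 6 of 7 libraries, the exception being CM replicate 2 (10.1% against 9.51%). The mean difference was -1.79 ± 2.11 points (SD, n = 7), with p = 0.0312 in an exact sign permutation test and an adjusted p of 0.0625, which did not pass 0.05. In CP the shares were 7.51% and 4.70% at members, against 13.4% and 7.65% at regions active in CP and CM. These 2 differences, -5.92 and -2.95 points, were the largest of the 7. The 2 sets were chosen by whether they were active in CP, so the CP shares may follow in part from the rule. The members were also shorter, with medians of 1475 and 1850 bases. By length class in CM, the share was higher at members in 2 of 5 classes in replicate 1 and in 3 of 5 in replicate 2. At 5 kb or more it was 25% and 23.3% of 116 members, against 16.7% and 13.3% of only 30 regions. From 2000 to 3000 bases it was lower, 6.08% and 12.3% of 658 members, against 7.94% and 14.3% of 126 regions.

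**Figure D3:**
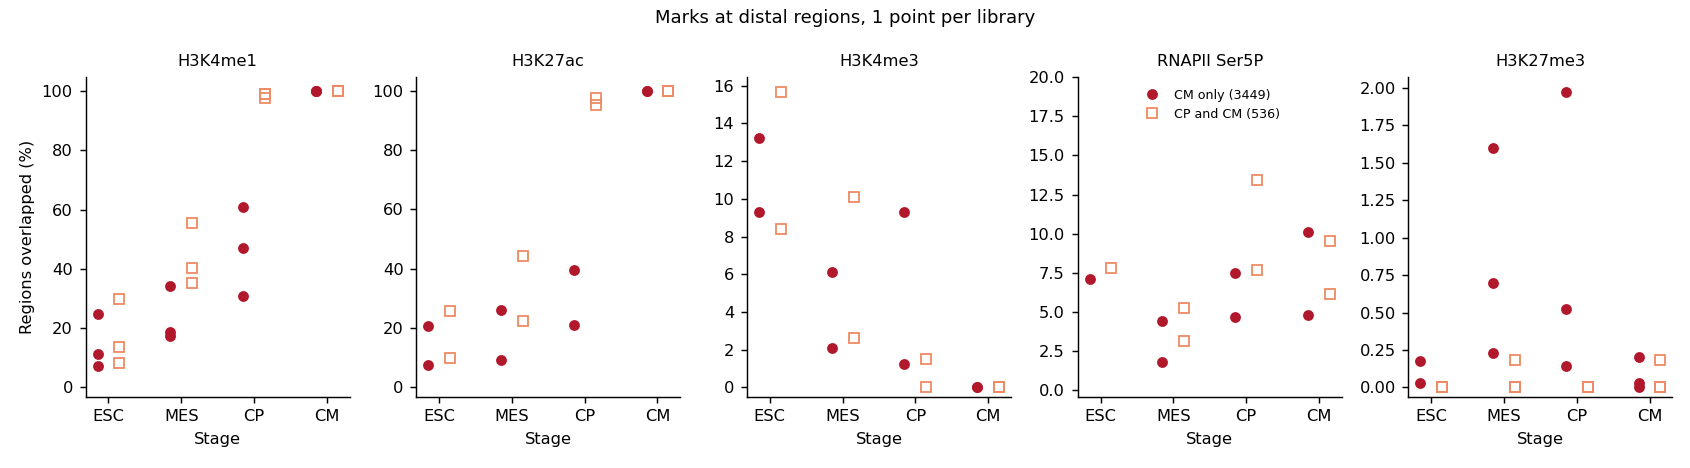
Percent of regions overlapped by each target at each stage (vertical axes differ between panels), with 1 point per library, for the 3449 CM-only regions (filled circles) and the 536 regions active in CP and CM (open squares). H3K4me1, H3K27ac and H3K4me3 shares are set in part by the rule; RNAPII Ser5P at CM-only regions ranged from 1.83% to 10.1% and H3K27me3 from 0 to 1.97%.

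In at least 1 CM library, 428 members (12.4%) carried RNAPII Ser5P, against 5.64% of all distal regions of CM, and in both, 86 members (2.49%), against 0.959%. Regions active in CP and CM had nearly the same shares as the members, 13.2% and 2.43%. The 86 were long and high, with a median length of 2437.5 bases and median H3K27ac percentiles of 83.8 and 87.4, against 1425 bases and 42.1 and 53.9 for the 3021 members without RNAPII Ser5P in CM. Within 50 kb of an H3K4me3 region present in both CM libraries lay 2329 members (67.5%; 66.6% of the distal regions). The 86 lay a median of 17.3 kb from an H3K4me3 region of CM, and the 3021 lay 31.8 kb away. Longer regions have more room for an overlap, so the shares are also given by length. Among members under 1 kb, RNAPII Ser5P overlapped 0.985% and 8.32% in the 2 CM libraries, against 0.197% and 2.34% of the other distal regions of that length. Among members of 5 kb or more it overlapped 25.0% and 23.3%, against 8.94% and 7.32%. In all 5 length classes, both CM libraries had the higher share at members than at the other distal regions, a contrast that was not tested.

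RNAPII Ser5P was present in both CM libraries and in no earlier library at 39 members (1.13%), against 0.387% of all distal regions and 1.31% of regions active in CP and CM. By RNAPII Ser5P height the leading such member was chr8:129258276-129260525 (2250 bases), with 21 and 90 in CM, H3K27ac of 246 and 262, and no H3K4me3 at any stage; it lay 138 kb from an H3K4me3 region present in both CM libraries. At chr13:52172076-52176575 (4500 bases) RNAPII Ser5P stood at 18 and 94, H3K27ac at 186 and 200, and the nearest H3K4me3 region present in both CM libraries was 227 kb away. At chr16:92426151-92430475 (4325 bases) RNAPII Ser5P stood at 15 and 131 and H3K27ac at 220 and 254, and both ESC libraries held H3K4me3 (37 and 44). At chr18:61665251-61667225 (1975 bases) RNAPII Ser5P stood at 15 and 107, and at chr8:107129301-107138425 (9125 bases) at 16 and 87. For the members at chr8:129258276-129260525 and chr13:52172076-52176575, these distances were the same, 138 and 227 kb, when H3K4me3 calls of a single CM library were counted too.

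H3K27me3 was rare at members. It overlapped 0.174% and 0.029% of them in ESC, 1.59%, 0.696% and 0.232% in MES, 1.97%, 0.522% and 0.145% in CP, and 0.203%, 0.029% and 0% in CM. The CM libraries averaged 0.0773% ± 0.110 (SD, n = 3) and the earlier libraries 0.670% ± 0.727 (SD, n = 8). The difference of -0.593 points did not pass an exact two-sided permutation test over 11 libraries (p = 0.133, adjusted p = 0.178; the smallest p the design allows is 0.00606). With the lists of every mark cut to equal length, the member set was rebuilt (2627 regions). The difference was then -0.125 points and passed (exact permutation test, adjusted p = 0.0485). It rested on mean shares of only 0.0127% in CM and 0.138% at the earlier stages. The lists of CM replicate 3 and ESC replicate 3 held 2929 and 3252 regions, the fewest for this mark.

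The regions active in CP and CM held almost no H3K27me3. The share at members was higher in 10 of 11 libraries and equal, at 0, in the other, CM replicate 3. Over the libraries it averaged 0.509% at members, against 0.0339% at regions active in CP and CM, a difference of 0.475 ± 0.652 points (SD, n = 11; exact sign permutation test, p = 0.00195, adjusted p = 0.00781). In CP, 68, 18 and 5 of the 3449 members were overlapped in the 3 libraries, and none of the 536 other regions. Those 536 were chosen for H3K27ac in CP, on the lysine that H3K27me3 would occupy, and a single region of them already makes 0.187%, more than the members' share in several libraries. No difference is therefore read from this test. With a replicate number left out, 7 or 8 libraries remained, the difference was 0.277 to 0.519 points and the adjusted p of the exact test 0.0625 to 0.125. With lists cut to equal length, which also rebuilt both sets, the difference was 0.104 points. All stages together, 92 members (2.67%) overlapped H3K27me3 in some library, against 3.20% of all distal regions.

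H3K27me3 in all 3 CP libraries and no CM library was found at 4 members (0.116%), against 0.149% of all distal regions. Besides the region on chromosome 8 described above, these were chr11:98244276-98251150, chr16:10781076-10783800 and chr10:80450376-80450925. At the first of these 3 (6875 bases), H3K27me3 stood at 81, 39 and 15 in CP, H3K27ac at 46 in CP replicate 1 and at 141 and 179 in CM, and RNAPII Ser5P at 17 and 116 in CM. At chr16:10781076-10783800 (2725 bases) H3K27me3 stood at 111, 23 and 14 in CP, and H3K27ac was called only in CM (72 and 89). At chr10:80450376-80450925 (550 bases) H3K27me3 stood at 41, 30 and 17 in CP and H3K27ac at 63 and 126 in CM, with 55 in ESC replicate 1.

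The members lay in groups along the chromosomes. With gaps of up to 50 kb joined, 1133 of the 3449 (32.9%) fell into 264 clusters of at least 3, 834 into pairs and 1482 stood alone. Clusters held 7.65% of regions active in CP and CM, 9.60% of CP-only, 11.9% of MES-only and 17.2% of ESC-only regions. These sets are smaller, and smaller sets have wider gaps. Set against its own mean gap, the median gap was 0.179 for the members (130.5 kb against a mean of 729 kb), 0.417 for regions active in CP and CM, 0.357 for CP only, 0.319 for MES only and 0.311 for ESC only. No test was made of this difference. Joined within 20 kb, 708 members fell into clusters. With list regions closer than 1 kb merged first, 711 of 2990 members fell into clusters at 50 kb. The share in clusters was not computed for all distal regions of CM, so the grouping cannot be called particular to the members.

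**Figure D4:**
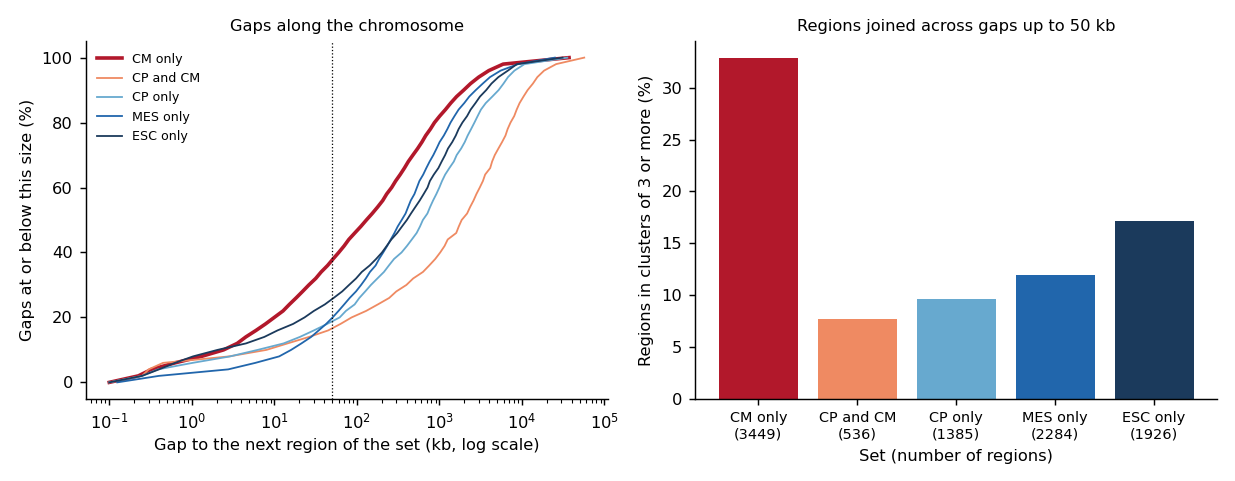
Left, cumulative percent of gaps between neighbouring regions of a set against gap size in kb (log scale, dotted line at 50 kb). Right, percent of each set in clusters of 3 or more with gaps up to 50 kb joined; the CM-only set reached 32.9% and is also the largest set.

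Members in clusters and single members had different shares of RNAPII Ser5P, which the rule did not use. It overlapped 7.59% and 14.8% of clustered members in the 2 CM libraries, against 3.17% and 6.68% of single members. Within 50 kb of an RNAPII Ser5P region present in both CM libraries and in no ESC or MES library lay 419 members (12.1%), against 7.03% of all distal regions and 11.6% of regions active in CP and CM. Of clustered members 24.4% lay that close, of those in clusters of 5 or more 33.9%, and of single members 4.32%. A member overlapping such a region counted as close. Neighbours in a cluster can share a single such region, so these shares do not count separate loci. For marks that the rule did use, an H3K4me3 region present in both CM and neither ESC library lay within 50 kb of 391 members (11.3%), against 9.75% of all distal regions, with 16.4% among clustered and 8.43% among single members. Clustered members were also longer, with a median of 1750 bases against 1375, and ranked higher in H3K27ac, at percentiles 50.3 and 63.4 against 39.7 and 51.7. What part length plays in these shares was not tested.

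The 5 clusters with the most members held 14, 12, 12, 10 and 10. The largest, chr16:24347376-24513300, spanned 166 kb, and its 14 members were 525 to 5575 bases long. Mean H3K27ac percentiles ran from 30.5 to 97.4 among them, with the highest at chr16:24493801-24497975 (4175 bases) and the next at the unmarked region chr16:24416901-24419225 described above. Of the 14, 8, 5 and 5 had H3K4me1 in the CP libraries, 3 and 1 had H3K27ac there, and none had H3K4me3 or H3K27me3 in any library. RNAPII Ser5P overlapped 1 and 5 of them in CM, 4 and 1 in CP, 0 and 1 in MES and none in ESC. The H3K27ac of these members in CM, and its low count before, follow in part from the rule, and nothing is read from them. Between the members lay 2 H3K4me3 regions present in both CM libraries.

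**Figure D5:**
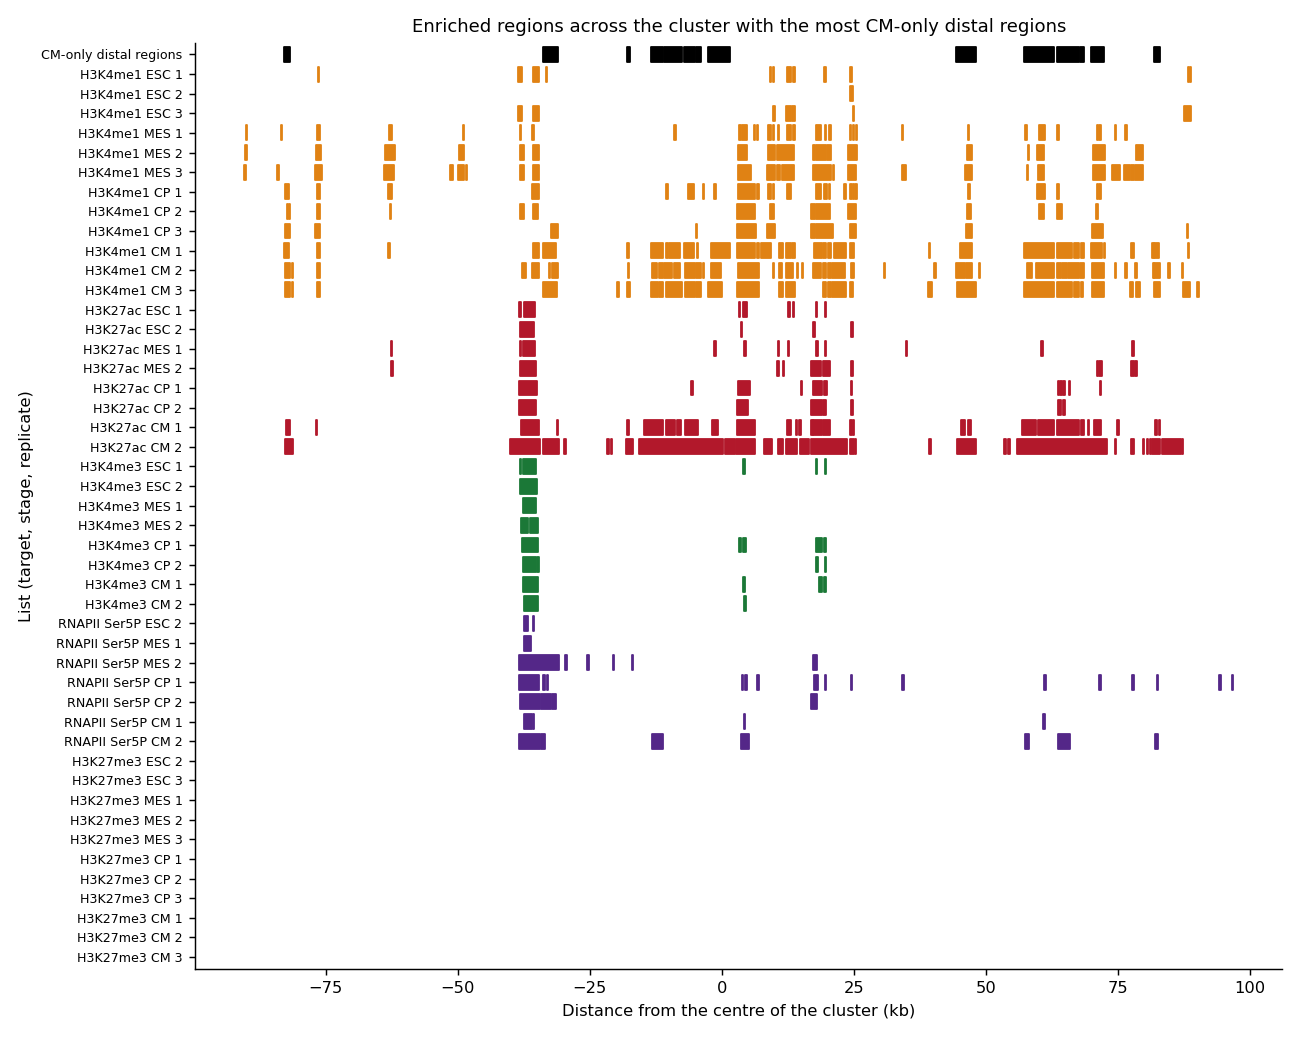
Enriched regions of all lists (rows, by target, stage and replicate) across the cluster with the most CM-only distal regions, against distance from its centre in kb; bars are drawn at least 0.25 kb wide. The top row shows the 14 CM-only regions; H3K27ac in CM replicate 2 covers them most widely, and the H3K27me3 rows are empty.

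The cluster at chr2:119918751-119974950 packed 12 members into 56.2 kb. RNAPII Ser5P overlapped 4 and 7 of them in the CM libraries and none in any earlier library, and 7 members had no earlier H3K4me1. Inside the cluster lay 3 RNAPII Ser5P regions present in both CM libraries and in no ESC or MES library. The cluster at chr8:34895776-35011750, also with 12 members over 116 kb, went the other way. RNAPII Ser5P overlapped 7 and 12 of its members in CM but also 11 and 11 in CP and 9 in ESC. The longest RNAPII Ser5P region inside it spanned 31850 bases in CM replicate 2 and only 675 bases in CM replicate 1. H3K27ac was present at 6 and 7 of those 12 members in CP and at 6 and 4 in ESC. The clusters at chr4:57562926-57686025 and chr11:65015376-65163425 held 10 members each. H3K27ac was present in CP at 6 and 2 of the members on chromosome 4 and at 7 and 6 of those on chromosome 11. An H3K4me3 region gained between ESC and CM lay inside the cluster on chromosome 11 and inside none of the other 4 clusters. All 5 held at least 1 RNAPII Ser5P region present in both CM libraries and in no ESC or MES library. Such regions were not required to be absent from CP.

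Members were found on every chromosome examined, 1 to 19 and X. Their density ran from 0.186 per Mb on the X chromosome, with 31 members, to 1.90 per Mb on chromosome 18, with 172. As a share of all distal regions of CM they ranged from 21.6% on chromosome 6 to 30.3% on chromosome 16, and the X chromosome stood at 22.8%. The low number on X thus went with a low number of distal H3K4me1 regions there.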

How the data were processed

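The authors deposited a list of enriched regions for each of 46 libraries; the 8 whole cell extract libraries have no list among the files used and were not analysed here. Reads were aligned with Bowtie to mm9, per the submitters' processing notes; the region caller is not given in the sources used here. Peak heights in the deposited lists were taken as signal, on no scale shared between libraries. Positions and lengths, a unit recorded as other, are in bases as deposited, with starts printed 1-based. Read depth is unknown.

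Chromosomes 1 to 19 and X were used, and an overlap of at least 1 base counted. H3K4me1 regions were merged within each stage. The shares of members overlapped per library were compared by exact two-sided permutation of libraries, or of signs within libraries, with Benjamini-Hochberg adjustment over 4 tests; a further test was added after the values were seen. The members and lists were chosen with earlier results of these data known. Replicates have no stated culture of origin beyond being biological. Regions named were the 5 highest by H3K27ac, the 5 longest, the 5 largest clusters, the 5 with RNAPII Ser5P only in CM, those with H3K27me3 only before CM, and the 5 highest without earlier marks. Comparisons with heart loci, marker genes and sequence motifs had been laid out, need an annotation or genome of mm9 and were not made. Alternatives were equal list lengths, short regions left out, gaps merged, a stricter overlap, a majority of libraries, merging over all 12 H3K4me1 libraries, other joining distances, a block on the replicate number, and leaving out each number in turn; the restriction to members without earlier H3K27ac and the omission of short H3K27me3 lists were chosen after seeing the data. The code was tested on simulated data. Computations ran in Python 3.11.15 with pandas 2.3.3, scipy 1.17.1 and numpy 2.4.6.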

Additional observations from a re-analysis of the deposited data

Results flagged for a closer look

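RNAPII Ser5P at CM-only regions minus regions active only in CP came out above 0 in both CM libraries (2.98 and 6.44 points) and below 0 in both CP libraries (-0.288 and -0.285 points). The stages thus ran opposite ways, by 4.99 points on average, and the difference was not tested. In CP the shares lay close together, 7.51% and 4.70% at CM-only regions against 7.80% and 4.98% at CP-only regions. The sets were chosen as active in CM or in CP, so the opposite signs may follow in part from the rule. Nothing is read from them.

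H3K27me3 at CM-only regions minus regions active only in MES was below 0 in all 3 CM libraries (-1.11, -0.584 and -0.0438 points) and above 0 in all 3 MES libraries (0.675, 0.389 and 0.188 points). The gap averaged -0.997 points and was not tested, and the opposite signs were again the ground for listing it. In CM replicate 3, whose list held 2929 regions, the value came from 1 MES-only region and 0 members.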

How the results depend on the processing

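The number of CM-only regions was 3449. It was 2020 with regions under 500 bases left out, 7114 with a majority of libraries, 1525 without any earlier H3K27ac, and 3918 to 6427 with a replicate number left out, the highest without replicate 1. Members in clusters, 1133, numbered 708 with joining within 20 kb and 504 with the shortest joining distance tried, 609 with short regions left out, 711 with gaps under 1 kb merged, 3279 with a majority, 258 without earlier H3K27ac, and 1420 to 3009 without a replicate number. The causes were not tested.

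The RNAPII Ser5P difference between CM and earlier libraries ran from -0.511 to 2.39 points without a replicate number, turning negative without replicate 2, where the member set was also rebuilt. The H3K27me3 difference of -0.593 points passed (adjusted p = 0.0485 by exact permutation) with lists of equal length, at -0.125 points over 2627 rebuilt members. RNAPII Ser5P at CM-only minus CP and CM regions passed with a majority (-1.46 points), with H3K4me1 merged over all 12 libraries (-2.68) and without earlier H3K27ac (-4.68, members chosen on earlier marks), and ran from -3.51 to -1.72 without a replicate number. For H3K27me3 the same contrast did not pass with gaps under 1 kb merged (0.480 points) nor without any replicate number (0.277 to 0.519 points). The added RNAPII Ser5P contrast kept its direction throughout (1.203 to 6.83 points without a replicate number), which may follow in part from the rule.

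The labels do not say that replicate numbers pair the libraries, and the numbers were not taken as pairs. Deviations of same-numbered libraries correlated at 0.0524 to 0.125 for RNAPII Ser5P and 0.0308 to 0.423 for H3K27me3. In the same order, 6 of 6 and 9 of 11 libraries correlated best with their own number, at most a hint from the data. Where a stage has 2 libraries, as for RNAPII Ser5P, their deviations from the stage mean are mirror images. The 6 of 6 are therefore not 6 separate agreements, and the design does not state a pairing. With the replicate number as a block, exact permutation gave p = 0.333 for the RNAPII Ser5P difference of 2.34 points, p = 0.0417 (adjusted p = 0.0556) for the H3K27me3 difference of -0.593 points and p = 0.0833, the smallest it allows, for the added contrast of 5.79 points. No call changed. Unknown read depth and unequal list lengths limit every share given.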
